A study of Danio rerio with 6 samples.

Results

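Claudin transcripts were measured by RNA sequencing in germ cells of juvenile zebrafish (TL strain, 21 days post fertilization). The claudin genes are the 34 genes of the 31743 in the deposited table whose name begins with cldn. All fish carried the foxl2l:egfp reporter and were either foxl2l+/+ (wild type) or foxl2l-/- (mutant). Foxl2l is a forkhead transcription factor gene, and the study asks about its role when female meiosis begins. Trunks with the gonad were dissociated with enzymes and EGFP-positive germ cells were sorted, about 300 for a genotype as the labels put it, and each genotype had 3 libraries. Cells were therefore selected by a reporter named for the mutated gene. The labels name no mutant allele and do not say whether replicate libraries stem from separate fish, so p-values measure the spread between libraries, which may be partly technical.

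Claudins are small proteins with 4 membrane spans that form the strands of tight junctions, the seals between neighbouring epithelial or endothelial cells. Some members close the space between cells and others form pores that select ions by charge. Inside the cell their tails bind scaffold proteins of the ZO family, and beside them in the membrane lie occludin, tricellulin and the JAM proteins. Many claudins are known from a particular barrier, such as skin, gut, kidney tubule, brain vessels or myelin, and some are known from single-cell layers of the early fish embryo.

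The libraries held 25176401 to 39189535 counts. The foxl2l gene itself, listed as zgc:194189, received 47231, 40067 and 31437 counts in the mutant libraries and 17736, 22491 and 17630 in the wild-type libraries. With library depth taken into account it was higher in mutant libraries, by 0.64 ± 0.20 (SE) in log2 (edgeR adjusted p = 0.0263). These values do not check the genotype labels, since the altered part of the gene is not given. Beside the germ cell label, 10 germ cell markers had a summed level of 7875 to 10040 CPM in mutant and 9453 to 11042 CPM in wild-type libraries. Abundant genes such as ddx4 and piwil1 weigh heavily in that sum, so it does not measure purity. Of the 10 markers 1 rose and 3 fell (40%, against 31.6% of all tested genes), while others, among them ddx4 and piwil1, did not pass. Nanos3 rose, with a log2 fold change (foxl2l-/- over foxl2l+/+) of 1.01 ± 0.28 (SE). The 3 that fell were buc (-4.11 ± 0.24), sycp3 (-2.83 ± 0.21) and dnd1 (-0.53 ± 0.18), so the markers did not move alike. Levels in CPM are counts scaled to TMM-adjusted library totals and serve to compare libraries. Levels in TPM, which the authors scaled by gene length, serve to compare genes.

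Of the 34 claudin genes, 18 (52.9%) were expressed, defined as at least 1 CPM in every library of a genotype, against 59.4% of all genes in the table. In both genotypes 14 were expressed. Cldn11a, cldnd1b and cldn15la met the limit in mutant libraries alone and cldn2 in wild-type libraries alone. Another 14 genes were low, meaning neither expressed nor at the floor of 3 counts or fewer in every library. They were cldn1, cldn5a, cldn10a, cldn10b, cldn18, cldn19, cldn23a, cldn23b, cldnb, cldnc, cldne, cldnf, cldnh and cldnk. A low gene can have a higher mean than an expressed gene. Cldn23a averaged 3.28 CPM in mutant and 3.05 CPM in wild-type libraries. It missed the limit at 0 CPM in mutant replicate 3 and 0.994 CPM in wild-type replicate 1. At the floor were 2 genes, cldnj and cldn10l2, where 14.7% of all genes lay. A level of 3 counts equals 0.0710 to 0.126 CPM in these libraries. Counts above 0 were found for 29 to 33 members per library.

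In wild-type cells a single gene, cldnd, made up most of the claudin transcripts. The claudin genes summed to 801 ± 367 TPM in wild-type and 136 ± 2.18 TPM in mutant libraries (SD, n = 3 each). Cldnd took 80.3%, 71.5% and 68.1% of that sum in wild-type replicates 1 to 3 and 8.59%, 10.5% and 9.37% in mutant replicates 1 to 3. By TPM it ranked 126th, 419th and 463rd among all genes in the wild-type libraries, and between rank 7521 and rank 8641 in the mutant libraries. Without cldnd the sums were 199 ± 37.1 TPM in wild-type and 123 ± 0.952 TPM in mutant libraries.

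By mean TPM cldnd ranked first among the claudins in wild-type libraries but not in mutant libraries. In wild-type libraries cldng (82.7 ± 18.8 TPM) and cldn7b (45.5 ± 17.9 TPM) came next, followed by cldn12 (14.5 ± 1.35 TPM) and cldn17 (12.2 ± 1.29 TPM), and cldn12 and cldn17 overlapped in their libraries (SD, n = 3). In mutant libraries the order began with cldng (19.1 ± 2.3 TPM), cldn7b (16.8 ± 4.45 TPM), cldnd (12.9 ± 1.48 TPM), cldn12 (11.2 ± 2.22 TPM), cldn7a (10.002 ± 1.02 TPM) and cldn11b (9.35 ± 3.71 TPM). Neighbours in that order overlapped in their libraries. Genes further apart need not, since cldng at 16.6 to 21.1 TPM lay above cldnd at 11.5 to 14.4 TPM. Members not named in either order averaged at most 6.41 TPM.

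**Figure D1:**
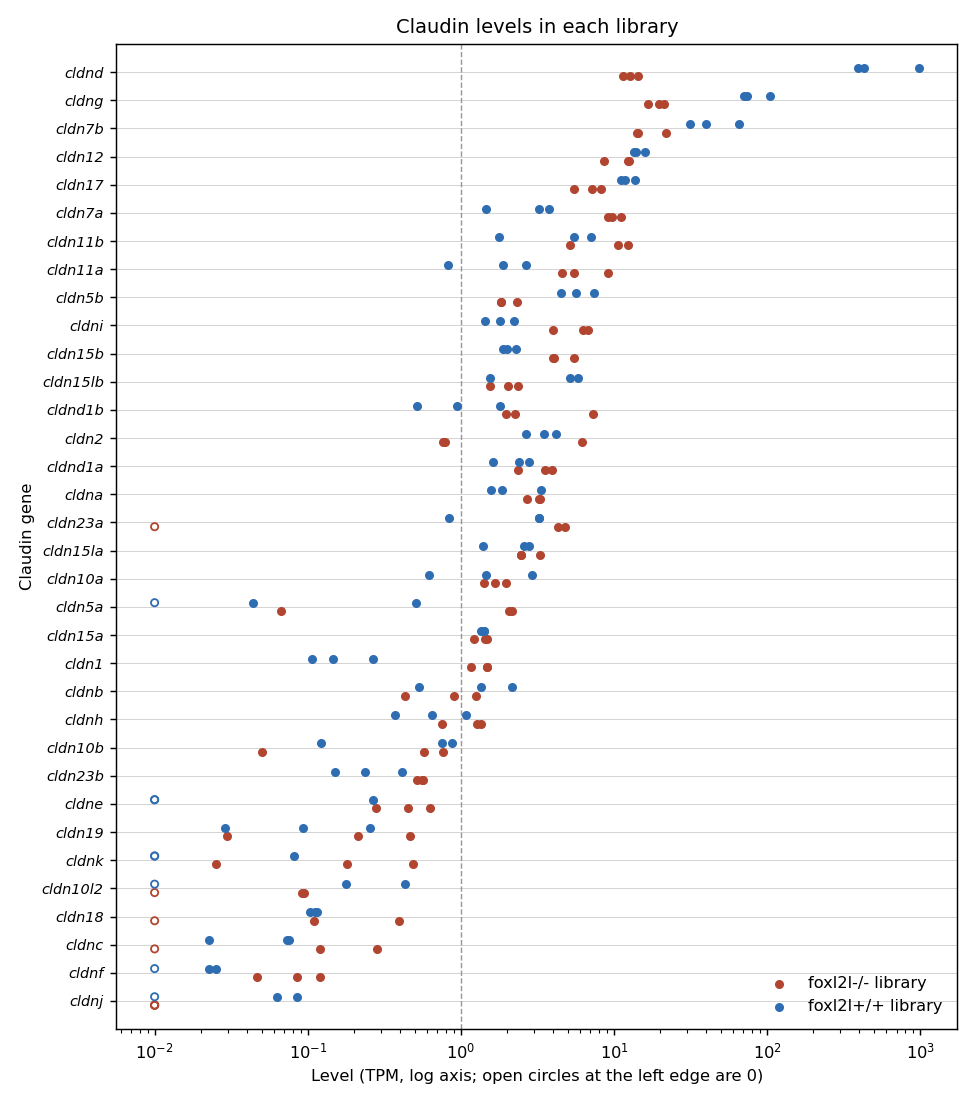
TPM of each of the 34 claudin genes (rows) in every library on a log axis, with foxl2l-/- libraries in red, foxl2l+/+ libraries in blue and values of 0 as open circles at 0.01; the dashed line marks 1 TPM. The foxl2l+/+ libraries of cldnd lie at 393 to 983 TPM, and its foxl2l-/- libraries at 11.5 to 14.4 TPM.

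Between the genotypes, 9 claudin genes differed, 4 higher and 5 lower in mutant cells. The genes that fell were cldnd, cldng, cldn7b, cldn5b and cldn17, and those that rose were cldn7a, cldn11a, cldni and cldn1. Enough counts for the test were present for 27 members, so 33.3% of tested members were called, against 31.6% of all 23576 genes tested. By direction, 14.8% of tested members rose against 15.7% of all genes, and 18.5% fell against 15.8%. The share of claudins called was near that of all genes. A call is an adjusted p below 0.05 (edgeR, quasi-likelihood, adjusted by Benjamini-Hochberg over all genes). In 13 tested members the 3 mutant libraries lay entirely above or below the 3 wild-type libraries (48.1%, against 46.7% of all tested genes). The median log2 fold change of the tested members, foxl2l-/- over foxl2l+/+, was 0.11, beside 0.05 over all tested genes.

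Most calls of a rise were lost in some fits that left out 1 library. Such fits hold fewer libraries, and over all genes the number called higher fell too, from 3710 to between 2708 and 3302. Log2 fold changes in these fits were 1.26 to 1.91 for cldn11a, 1.19 to 1.64 for cldni and 2.42 to 3.10 for cldn1. Cldn7a was the 1 higher member left without mutant replicate 1, without mutant replicate 2 or without wild-type replicate 3, and 2 were left without wild-type replicate 2. With library totals in place of TMM factors 6 were higher and 5 lower. That scaling moved the median of all genes from 0.05 to 0.25. In bulk libraries, fewer cells with a transcript and less transcript per cell cannot be told apart.

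**Figure D2:**
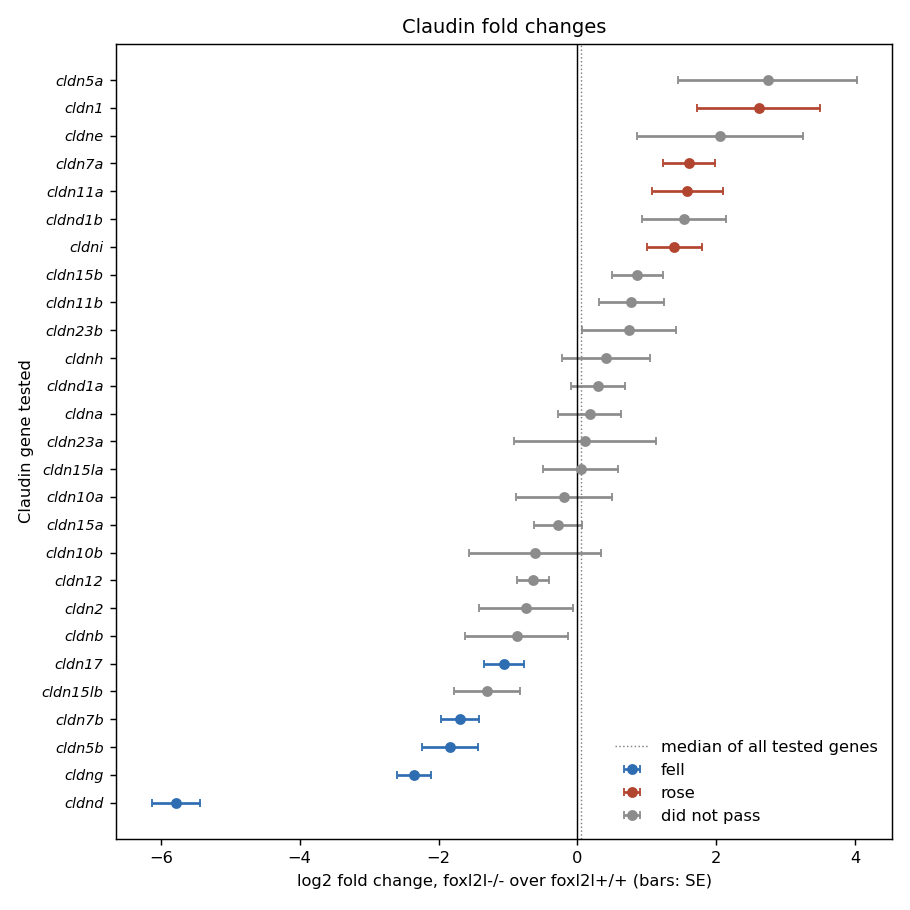
Log2 fold change, foxl2l-/- over foxl2l+/+, of the 27 claudin genes tested, with standard errors as bars and the median of all tested genes as a dotted line. Cldnd stands apart at -5.79, while the other members that fell lie between -2.35 and -1.06 and those that rose between 1.40 and 2.61.

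Cldnd (ENSDARG00000006580) spans 25777425 to 25778201 on the forward strand of chromosome 21 in GRCz11. It reached 466, 224 and 189 CPM in wild-type replicates 1 to 3 and 5.12, 5.94 and 4.87 CPM in mutant replicates 1 to 3. The lowest wild-type library was above every mutant library by a wide margin, and wild-type replicate 1 was well above the other wild-type libraries. The log2 fold change came to -5.79 ± 0.35 (SE), with an edgeR adjusted p of 7.06e-07. It was -6.00 to -5.30 when any 1 library was left out. A residual level of 190 to 251 counts remained in mutant libraries, far above the floor.

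Cldnd lies in a group of 6 claudin genes on chromosome 21, and was the only 1 of the 6 called. Over all tested genes 31.6% were called, and 1 of the 6, cldnc, was not tested. A single call among so few genes is therefore no result about the group. The group holds cldnh, cldnc, cldnb, zgc:112437, cldnd and zgc:136892 in that order, and the reference name table calls zgc:112437 cldn29 and zgc:136892 cldn30. Between cldnh and cldnc lies 1 further gene, CR388166.2, which did not pass. The gene zgc:112437 ends 2819 bp before cldnd starts, on the opposite strand. It held 62, 16 and 9 counts in wild-type and 70, 56 and 85 counts in mutant libraries, with a log2 fold change of 1.005 ± 0.67 (SE) and an edgeR adjusted p of 0.278. The gene zgc:136892 starts 15768 bp after cldnd and had a log2 fold change of 0.42 ± 0.999, and it overlaps mettl27 on the opposite strand over 94 bp. Cldnb, known in zebrafish from the migrating lateral line primordium, ranged from 0.275 to 0.734 CPM in mutant and from 0.394 to 1.48 CPM in wild-type libraries (-0.88 ± 0.74, edgeR adjusted p = 0.3997). Cldnh ranged from 0.744 to 1.47 CPM and from 0.464 to 1.46 CPM (0.42 ± 0.64, edgeR adjusted p = 0.658). None of these 4 passed the test, their libraries overlapped between genotypes, and cldnc, with at most 12 counts, was not tested.

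**Figure D3:**
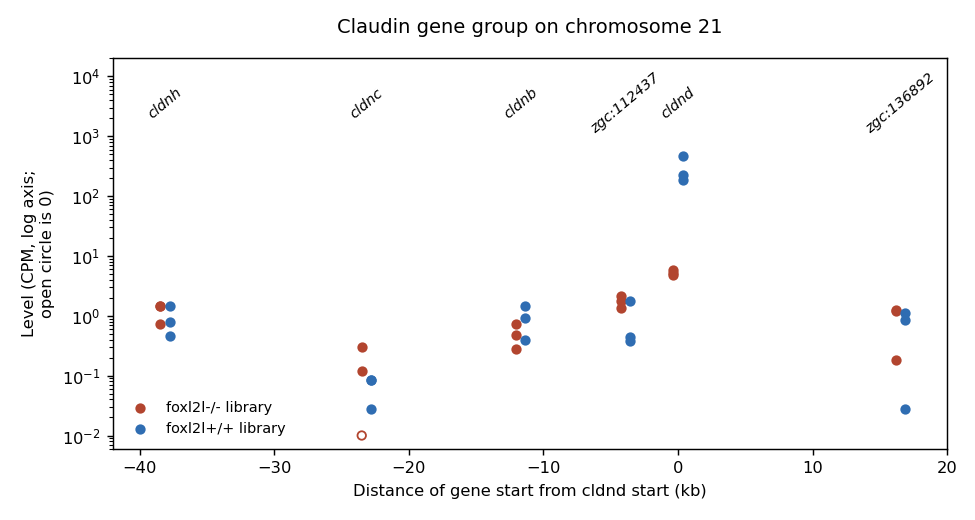
CPM of the 6 claudin genes of the group on chromosome 21 in each library on a log axis, against the distance of the gene start from the cldnd start in kb; the open circle is a count of 0. Only for cldnd are the genotypes apart, with 4.87 to 5.94 CPM in red foxl2l-/- libraries and 189 to 466 CPM in blue foxl2l+/+ libraries, while the other 5 genes overlap. Of all tested genes, 46.7% did not overlap.

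Cldng and cldn7b followed cldnd among the claudins that fell. Cldng (ENSDARG00000003701, chromosome 1, 33645044 to 33647169, reverse strand) was at 70.8, 54.8 and 48.7 CPM in wild-type and 13.5, 9.83 and 10.7 CPM in mutant libraries. Its genotypes lay apart, with a log2 fold change of -2.35 ± 0.24 (SE) and an edgeR adjusted p of 3.01e-05. Cldn7b, a homologue of mammalian claudin 7 of epithelia (ENSDARG00000014047, chromosome 10, 22144768 to 22150419, reverse strand), was at 82.6, 43.2 and 51.0 CPM in wild-type and 17.2, 15.4 and 22.2 CPM in mutant libraries. These groups were also apart, with a log2 fold change of -1.69 ± 0.27 and an edgeR adjusted p of 0.000644. Of the 9 calls, those of cldnd, cldng and cldn7b were the 3 that held under each of the 16 alternatives tried, a 2-fold limit included. As for cldnd, wild-type replicate 1 was the highest library for both genes.

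Cldn5b and cldn17 fell from lower levels. Cldn5b is a homologue of mammalian claudin 5 of brain vessels (ENSDARG00000014059, chromosome 10, 43994471 to 43996117, forward strand). It was at 4.51, 8.22 and 5.77 CPM in wild-type and 1.72, 1.59 and 1.87 CPM in mutant libraries, which did not overlap. A clone-named gene on the same strand covers it and held at most 6 counts. Its log2 fold change stood at -1.83 ± 0.40 (SE), with an edgeR adjusted p of 0.00443. Cldn17 (ENSDARG00000099950, chromosome 15, 42559910 to 42594436, forward strand) was at 16.2, 21.8 and 17.5 CPM in wild-type and 9.79, 10.4 and 6.44 CPM in mutant libraries. Its log2 fold change was -1.06 ± 0.29, with an edgeR adjusted p of 0.0153 that became 0.0589 without wild-type replicate 2 (0.00109 to 0.0589 across the alternatives, the 2-fold limit left out). Its gene model contains that of zgc:110333 (cldn8.2) on the same strand, which held 17.8 counts per library on average against 474 for cldn17, so reads may be split between them.

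Among the members that rose, cldn7a reached the highest level, and its call held in each fit that left out a library. It is the paralogue of cldn7b (ENSDARG00000036376, chromosome 7, 22616212 to 22626853, forward strand). Its level was 12.9, 9.78 and 9.62 CPM in mutant and 3.97, 1.97 and 4.68 CPM in wild-type libraries, with no overlap. The log2 fold change came to 1.61 ± 0.38 (SE), with an edgeR adjusted p of 0.00702.

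Cldn11a and cldni were called less firmly. Cldn11a (ENSDARG00000020031, chromosome 2, 25997426 to 26001173, reverse strand) is a homologue of mammalian claudin 11, which builds the junctions of Sertoli cells in the testis and of myelin. It was at 4.15, 6.42 and 2.95 CPM in mutant and 2.13, 1.66 and 0.674 CPM in wild-type libraries. The groups were apart by a narrow gap, with a log2 fold change of 1.58 ± 0.51 (SE) and an edgeR adjusted p of 0.0327. Cldni (ENSDARG00000054616, chromosome 3, 30921246 to 30927002, forward strand) was at 9.59, 8.26 and 4.82 CPM in mutant and 2.70, 3.69 and 2.19 CPM in wild-type libraries. Its groups were apart as well, with a log2 fold change of 1.40 ± 0.39 and an edgeR adjusted p of 0.0175. Over 639 bp it overlaps coro1a on the opposite strand, which did not pass the test (-0.33), and the library kit does not keep strand. Coro1a held 519 counts per library on average against 52 to 384 counts for cldni, so the reads of cldni are uncertain.

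Each of these calls ended in 4 of the 6 edgeR fits that leave out a library. The adjusted p of cldn11a became 0.0589 without mutant replicate 1, 0.148 without mutant replicate 2, 0.0738 without wild-type replicate 2 and 0.0894 without wild-type replicate 3 (0.00605 to 0.148 across the alternatives, the 2-fold limit left out). That of cldni became 0.0718 without mutant replicate 1, 0.0575 without mutant replicate 2, 0.0563 without wild-type replicate 1 and 0.0585 without wild-type replicate 3 in the same edgeR test (0.00188 to 0.0718 across those alternatives).

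Cldn1, whose mouse counterpart seals the skin, was called from few reads. It held 17, 21 and 18 counts in mutant and 2, 4 and 1 counts in wild-type libraries (ENSDARG00000040045, chromosome 2, 68789 to 71801, forward strand). Every mutant library was above every wild-type library, but all stayed below 0.5 CPM, under the limit for an expressed gene. Its log2 fold change stood at 2.61 ± 0.89 (SE), with an edgeR adjusted p of 0.0366. The call ended whichever library was left out, with edgeR adjusted p from 0.0653 without wild-type replicate 2 to 0.117 without wild-type replicate 1 (0.00188 to 0.117 across the alternatives, the 2-fold limit left out).

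Markers of other cell types summed far below the germ cell markers. The lists hold different genes, so their sums do not give the share of each cell type. Among epithelial, skin and envelope layer markers 50% were called, and among blood and immune markers 41.7%, against 31.6% of all tested genes. The share was 25% for myelin and glia, 25% for gut and liver, 20% for endothelial, 12.5% for kidney and 7.14% for somatic gonad markers. Of 14 somatic gonad markers tested, 1 rose, cyp17a1, none fell and 13 did not pass. The 17 in the table summed to 66.5 to 96.5 CPM in mutant and 38.7 to 43.4 CPM in wild-type libraries. The median log2 fold change of that list was 0.08, beside 0.05 over all tested genes. The source of the higher sum in mutant libraries was not tested. Of 12 epithelial, skin and envelope layer markers, 4 rose and 2 fell, and their sum was 222 to 310 CPM in mutant and 378 to 484 CPM in wild-type libraries. The 4 that rose were krt4, anxa1a, krt8 and tp63, with log2 fold changes of 3.44 ± 0.95, 1.91 ± 0.20, 1.42 ± 0.30 and 0.70 ± 0.25 (SE). Epcam (-3.16 ± 0.35) and cdh30_1 (-1.06 ± 0.21), the name in the table for the E-cadherin gene, were the 2 that fell. The other 10, which include the 4 that rose, summed to 116 to 146 CPM in mutant and 52.9 to 57.8 CPM in wild-type libraries (list median log2 fold change 0.84). Leaving out markers because they fell tilts such a sum towards mutant libraries, here and in the lists below. These partial sums therefore cannot show how a cell type's markers moved as a set. Of 10 endothelial markers, none rose and 2 fell, with sums of 38.8 to 50.8 CPM in mutant and 63.8 to 72.1 CPM in wild-type libraries. Flt4 and tek were the 2 that fell, and the other 8 summed to 32.7 to 34.99 CPM in mutant and 26.3 to 27.7 CPM in wild-type libraries (list median 0.31). Of 8 myelin and glia markers, 1 rose and 1 fell, with sums of 66.2 to 83.7 CPM and 53.1 to 77.8 CPM. Kidney markers (8 tested, 1 higher, 0 lower) summed to 33.0 to 44.0 CPM in mutant and 40.6 to 52.0 CPM in wild-type libraries, gut and liver markers (8 tested, 1 higher, 1 lower) to 19.5 to 27.4 CPM and 26.1 to 43.2 CPM, and blood and immune markers (12 tested, 2 higher, 3 lower) to 91.6 to 108 CPM and 107 to 143 CPM. The 2 blood and immune markers that rose were ptprc and cd74b, with log2 fold changes of 2.36 ± 0.42 and 2.02 ± 0.32 (SE). The immune markers cd74a, mpx, lyz and spi1b did not pass. The 3 blood markers that fell were alas2, hbaa1 and slc4a1a, all of red cells. Hbaa1 overlapped between genotypes, with 1790, 155 and 65 counts in wild-type and 57, 63 and 115 in mutant libraries. The red cell markers hbaa2, hbba2 and gata1a did not pass. Without the 3 that fell, the other 9 summed to 81.2 to 94.7 CPM in mutant and 47.1 to 65.7 CPM in wild-type libraries. List medians were -0.49 for blood and immune, -0.37 for kidney, -0.37 for gut and liver and 0.24 for myelin and glia markers. In each of these lists no marker was at 0 in all libraries. The part of these cells in the claudin values was not tested.

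Several claudins are present as gene pairs named by letter, and in 3 of 8 pairs the share of the first gene did not overlap between genotypes. For single genes in CPM, 46.7% of all those tested did not overlap, and pairs of other families were not measured. The share of cldn7a in the summed TPM of cldn7a and cldn7b was 43.6%, 39.5% and 30.7% in mutant and 4.70%, 4.47% and 8.59% in wild-type libraries. The share of cldn15a in its pair with cldn15b was 23.7 ± 2.36% in mutant and 40.5 ± 2.01% in wild-type libraries, and that of cldn15la with cldn15lb was 58.3 ± 3.46% and 37.8 ± 8.45% (SD, n = 3). An exact permutation test (two-sided) gave each of these p = 0.1, the lowest possible with 3 against 3 libraries, and 0.267 after Benjamini-Hochberg adjustment over the 8 pairs. The pairs were chosen with the fold changes known.

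In the cldn5a and cldn5b pair the share of cldn5a was 53.1% and 54.2% in mutant replicates 1 and 2 but 2.82% in replicate 3, against 10.2%, 0% and 0.766% in wild-type libraries. Cldn5a, known in zebrafish from the lining of the brain ventricles and from brain vessels, held 74, 75 and 2 counts in mutant and 17, 0 and 1 counts in wild-type libraries. It did not pass (log2 fold change 2.74 ± 1.29 SE, edgeR adjusted p = 0.124). It passed without mutant replicate 3 (adjusted p = 0.0426) and without wild-type replicate 1 (adjusted p = 0.0352) in the same edgeR test, in a range of 0.0352 to 0.276 with the 2-fold limit left out.

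**Figure D4:**
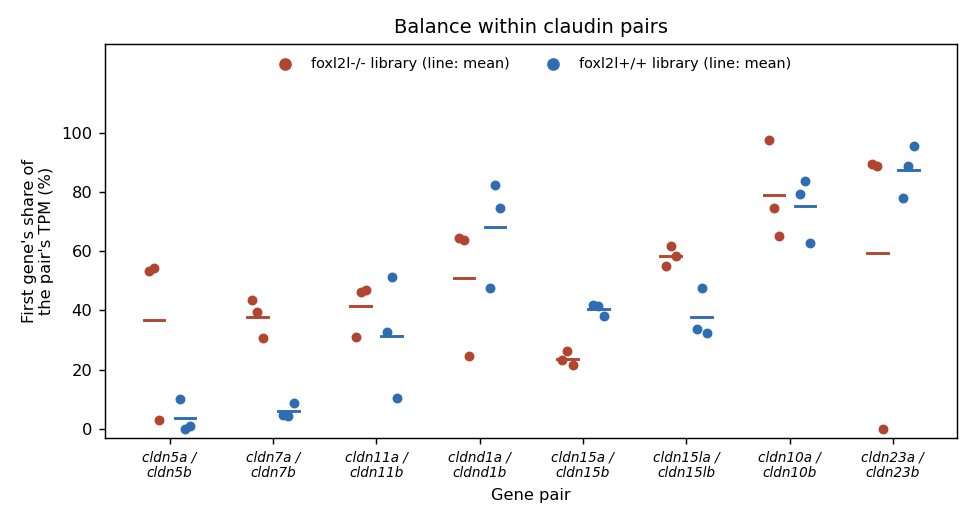
Share of the first-named gene in the summed TPM of 8 claudin gene pairs, in percent, with each library as a point and the mean of 3 libraries as a line (red foxl2l-/-, blue foxl2l+/+). Libraries of cldn7a and cldn7b are apart, at 30.7% to 43.6% against 4.47% to 8.59%. Those of cldn15a and cldn15b and of cldn15la and cldn15lb are apart too, while those of the other pairs overlap.

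Another 18 tested members did not pass. Cldn12, an atypical claudin, was the highest of these at 17.7, 23.3 and 21.9 CPM in mutant and 30.0, 38.1 and 29.8 CPM in wild-type libraries. Its groups were apart, with a log2 fold change of -0.64 ± 0.23 (SE) and an edgeR adjusted p of 0.0512, just outside the threshold. It passed under RLE factors (0.0476) and TMMwsp factors (0.0480) in edgeR, under DESeq2 (adjusted p = 0.0251) and under limma-voom (adjusted p = 0.0368), in a range of 0.0251 to 0.269 with the 2-fold limit left out. Its whole span lies within adam22 on the opposite strand, which held 45 counts per library on average. Cldn11b, the paralogue of cldn11a, was at 20.04, 16.1 and 7.21 CPM in mutant and 9.51, 3.41 and 12.5 CPM in wild-type libraries, and these overlapped (0.77 ± 0.47, edgeR adjusted p = 0.232).

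Members of the claudin 15 group, whose zebrafish genes are known from the gut, did not pass either with TMM factors in edgeR. Cldn15b had a log2 fold change of 0.86 ± 0.36 (SE), with 2.89 ± 0.327 CPM in wild-type and 5.26 ± 0.576 CPM in mutant libraries (SD, n = 3), with groups apart and an edgeR adjusted p of 0.0905. It passed under library totals in edgeR (0.0399), under DESeq2 (adjusted p = 0.0427) and under limma-trend (adjusted p = 0.0329), in a range of 0.0329 to 0.196 with the 2-fold limit left out. Over 66 bp it overlaps naa38 on the opposite strand, which held 3823 counts per library on average. Cldn15a was at 4.95 ± 0.359 CPM in wild-type and 4.10 ± 0.182 CPM in mutant libraries (-0.27 ± 0.35 SE, edgeR adjusted p = 0.588). Cldn15la, at 1.32 ± 0.390 CPM in wild-type and 1.36 ± 0.144 CPM in mutant libraries, had 0.05 ± 0.54 (edgeR adjusted p = 0.960) and changed sign in some fits. Cldn15lb held 243, 81 and 189 counts in wild-type and 103, 76 and 100 counts in mutant libraries, with -1.30 ± 0.48 and an edgeR adjusted p of 0.0563. With all libraries cldn15lb passed under DESeq2 (adjusted p = 0.0201) and under limma-voom (adjusted p = 0.0333). Without wild-type replicate 2 its edgeR adjusted p was 0.0124 (0.0124 to 0.215 across the alternatives, the 2-fold limit left out).

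Single libraries stood out in a few members. Cldn2, the claudin of cation and water pores in mammals, held 34, 32 and 223 counts in mutant and 168, 156 and 73 counts in wild-type libraries. Its log2 fold change was -0.74 ± 0.68 (SE) with all libraries and -2.34 without mutant replicate 3, where the edgeR adjusted p was 0.00514 (0.00514 to 0.819 across the alternatives, the 2-fold limit left out). Limma-voom with quality weights, on all libraries, gave -2.03 (adjusted p = 0.00575). Cldn2 lies within rbm41 on the opposite strand, which held 790 counts per library on average, so its reads are uncertain. Cldn23a held 215 and 189 counts in mutant replicates 1 and 2 and 0 in replicate 3, against 35, 151 and 93 in wild-type libraries (0.11 ± 1.02, edgeR adjusted p = 0.950). Cldnd1b, a more distant relative with a claudin domain, held 81, 91 and 249 counts in mutant and 69, 22 and 25 in wild-type libraries (1.53 ± 0.61, edgeR adjusted p = 0.0719). Without mutant replicate 3 its log2 fold change was 0.79, with an edgeR adjusted p of 0.365 (0.0349 to 0.365 across those alternatives). With all libraries it passed under DESeq2 (adjusted p = 0.0349) and under library totals in edgeR (adjusted p = 0.0479).

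Cldne, known from the outer envelope layer of the zebrafish embryo, held 30, 13 and 18 counts in mutant and 12, 0 and 0 counts in wild-type libraries. It did not pass (2.05 ± 1.19 SE, edgeR adjusted p = 0.207), but did without wild-type replicate 1, where the edgeR adjusted p was 0.0188 (0.0188 to 0.426 across the alternatives, the 2-fold limit left out) and both wild-type libraries were at 0. On all libraries it passed under limma-voom (adjusted p = 0.0393). The other 5 tested members overlapped in CPM between genotypes and did not pass. Cldna ranged from 2.57 to 3.62 CPM in mutant and from 1.90 to 4.36 CPM in wild-type libraries (0.18 ± 0.45, edgeR adjusted p = 0.800). Cldnd1a, the paralogue of cldnd1b, ranged from 3.51 to 6.37 CPM and from 2.98 to 5.23 CPM (0.30 ± 0.39, edgeR adjusted p = 0.605). Cldn10a and cldn10b, homologues of the pore-forming mammalian claudin 10, stayed at or below 1.56 CPM (-0.19 ± 0.69 and -0.60 ± 0.95, edgeR adjusted p = 0.863 and 0.668). Cldn23b ranged from 0.795 to 1.02 CPM in mutant and from 0.295 to 0.872 CPM in wild-type libraries (0.74 ± 0.68, edgeR adjusted p = 0.441).

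Too few counts for a test were found for 7 members. Cldn19, known from kidney tubules and myelin in mammals, had at most 13 counts in any library, and cldnk, a marker of myelinating glia in zebrafish, at most 19. Cldn18, a claudin of stomach and lung in mammals, had at most 11, cldnc at most 12 and cldnf at most 5. All of cldn18 lies within a clone-named gene on the same strand, so its reads are uncertain. At the floor, cldn10l2 held 1, 1 and 0 counts in mutant and 0, 2 and 3 in wild-type libraries, and cldnj, needed for otolith formation in zebrafish, held 0 in all mutant and 2, 3 and 0 in wild-type libraries. These counts were too few to show a difference at this depth.

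The reference tables give claudin symbols to 8 further genes that the deposited table lists under other names. Of these, 4 were tested and none passed edgeR's test, against 31.6% of all tested genes. With 4 genes, that absence of calls is no result about them. In the same test 1 had an unadjusted p below 0.05. That gene is listed as CLDN22 (cldn26 in the reference table) and held 45, 91 and 73 counts in mutant and 22, 34 and 5 in wild-type libraries (1.499 ± 0.66 SE, edgeR adjusted p = 0.101). With zgc:112437 it was 1 of 2 among the 8 that counted as expressed. The gene listed as si:ch211-181l5.2 (cldn10d) held 31, 21 and 6 counts against 2, 1 and 0, and si:busm1-52i16.2 (cldn10e) 0, 2 and 0 against 4, 12 and 5, both under the limit for a test. The gene listed as si:dkey-221l4.11 (cldn23l) held 25 counts in wild-type replicate 2 and at most 3 elsewhere, and zgc:153311 (cldn33b) was at the floor.

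Transcripts of genes whose proteins work with claudins in tight junctions rose in some cases and fell in others. The list held 54 partner symbols, among which a gene can appear under both an older and a newer name. Of these, 51 were matched to genes in the table. The test covered 47, of which 11 rose, 14 fell and 22 did not pass. That is 53.2% called, against 31.6% of all tested genes, with a median log2 fold change of -0.39 beside 0.05 over all tested genes. Under library totals 14 rose and 9 fell, and with limma-trend on TPM 13 rose and 9 fell. Without wild-type replicate 3 only 5 rose, and without mutant replicate 3 or wild-type replicate 1 the number was 7.

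The partners with the smallest p were ildr2, jam3b, cxadr and marveld2a. Ildr2, of the angulin family of cell corners, was at 34.7, 34.0 and 34.9 CPM in mutant and 11.3, 11.4 and 11.1 CPM in wild-type libraries, a log2 rise of 1.61 ± 0.22 (SE). The junctional adhesion molecule gene jam3b rose on the same scale by 2.12 ± 0.34, from 3.82 ± 1.36 to 16.6 ± 2.28 CPM (SD, n = 3). The adhesion receptor gene cxadr fell by 1.75 ± 0.31, from 35.1 ± 10.8 to 10.5 ± 3.40 CPM. Marveld2a, a tricellulin gene of cell corners, fell by 1.25 ± 0.23, from 47.7 ± 6.90 to 20.1 ± 3.83 CPM. The edgeR adjusted p of these 4 lay between 0.000242 and 0.00155.

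Among the partners, the ZO scaffold and occludin genes described here, chosen after their values were seen, were mixed. Other ZO genes of the list are not described, so this does not cover the binding partners of claudins as a set. The ZO scaffold genes tjp1a and tjp1b had log2 fold changes of -0.94 ± 0.27 and -0.85 ± 0.23 (SE), with edgeR adjusted p of 0.0175 and 0.0161. These calls ended under library totals, with edgeR adjusted p of 0.0516 and 0.0568, for tjp1a without wild-type replicate 2 (0.0838) and for tjp1b without wild-type replicate 1 (0.0724), in ranges of 0.00271 to 0.163 and 0.00498 to 0.169 with limma-trend included and the 2-fold limit left out. The occludin genes went in opposite directions, with oclna at -0.84 ± 0.29 (edgeR adjusted p = 0.0453) and oclnb at 1.47 ± 0.40 (edgeR adjusted p = 0.0154). The call of oclna ended without mutant replicate 1 (0.133), without mutant replicate 2 (0.130), without wild-type replicate 1 (0.0644), without wild-type replicate 3 (0.284), without the low-count filter (0.0544) and under library totals (0.126) in edgeR, in a range of 0.0167 to 0.284 for the adjusted p across the alternatives, the 2-fold limit left out. That of oclnb ended in the same edgeR test without mutant replicate 3 (adjusted p = 0.0583) and without wild-type replicate 3 (adjusted p = 0.0588), in a range of 0.00147 to 0.0588 on the same terms.

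**Figure D5:**
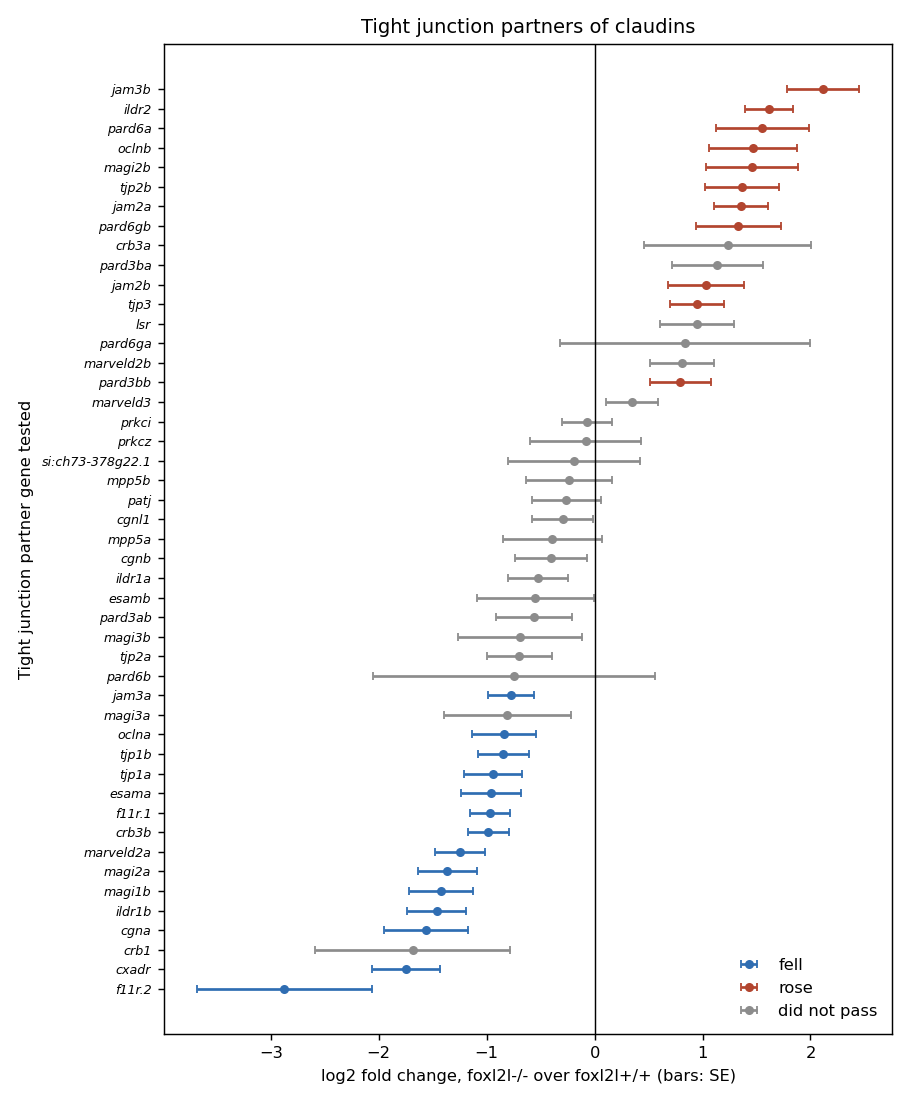
Log2 fold change, foxl2l-/- over foxl2l+/+, of the 47 tight junction partner genes tested, with standard errors as bars; red points rose, blue points fell and grey points did not pass. The 11 that rose lie between 0.79 and 2.12 and the 14 that fell between -2.87 and -0.77.

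Of 28 listed genes of adherens junctions and cell adhesion, 24 were in the table and tested, of which 5 rose and 6 fell, which is 45.8% against 31.6% of all tested genes. The epithelial adhesion gene epcam, also 1 of the epithelial markers above, was at 198, 106 and 89.7 CPM in wild-type and 20.7, 9.09 and 14.3 CPM in mutant libraries, with the highest value in wild-type replicate 1, as for cldnd. Its log2 level fell by 3.16 ± 0.35 (SE; edgeR adjusted p = 5.15e-05). The catenin gene ctnnb1 fell by 1.16 ± 0.21 and nectin3b by 2.01 ± 0.37, while the plakoglobin gene jupa rose by 2.44 ± 0.33. The list had a median of 0.17.

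Relatives of the claudins in the PMP22 superfamily share the membrane topology but are known from other sites, such as myelin, lens and calcium channels. Of 36 listed, 32 were in the table and 30 were tested, of which 3 rose and 4 fell (23.3% against 31.6% of all tested genes), with a median of -0.14. Lim2.2, of the lens membrane protein family, had a log2 fold change of -1.48 ± 0.20 (SE), with 199.8 ± 16.7 CPM in wild-type and 71.7 ± 15.97 CPM in mutant libraries (SD, n = 3). The myelin protein gene pmp22b rose on that scale by 1.995 ± 0.36, from 2.21 ± 0.470 to 8.79 ± 1.29 CPM. Of the calcium channel gamma subunit genes, cacng3b rose by 2.51 ± 0.39 and cacng7a fell by 2.42 ± 0.40.

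The authors' deposited table calls 12 claudin genes at an FDR below 0.05, 6 higher and 6 lower, where 28.3% of all its genes with a value are called. The 9 genes called here are among them in the same direction. Its further 3 are cldn5a (2.78), cldnd1b (1.58) and cldn15lb (-1.27), given as log2 fold changes of that table. For cldnd the authors' deposited table gives -5.75. Of the 8 claudin genes under other names, the authors' deposited table calls si:ch211-181l5.2 (cldn10d) higher, at 3.80 with an FDR of 0.00974, and si:busm1-52i16.2 (cldn10e) lower, at -3.49 with an FDR of 0.0484, both from the few counts given above.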

How the data were processed

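Each of the 6 libraries was made with SMART-Seq HT and Nextera XT and sequenced on an Illumina NextSeq, per the labels' protocols, which name no molecular identifiers. The floor of 3 counts is a fixed limit that was not derived from a model of error. SDs and standard errors include the spread between libraries. The build was GRCz11 and bcl2fastq was used, per the submitters' processing notes, with aligner and counter not given in the sources used here. Values deposited by the authors are total counts per gene, TPM, log2 fold changes and FDR p-values. Another 12 columns of library values were not used.

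Counts were tested with edgeR 4.0.16 in R 4.3.3 (filterByExpr, TMM factors, quasi-likelihood F test, Benjamini-Hochberg threshold 0.05) on all 23576 genes passing the filter. Standard errors are the absolute coefficient over the square root of F. DESeq2 1.42.0, limma 3.58.1 (voom, and trend on log2(TPM + 1)), other scalings and filters, a 2-fold limit, a replicate block and leaving out each library were alternatives. Within each genotype, no library pair agreed within sampling noise.

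The text names foxl2l, every claudin called or at 10 CPM or more on average in a genotype in full, the other tested claudins with values or ranges over libraries, untested ones with their highest count, and up to 4 genes of smallest p per further list. The ZO and occludin genes, and markers named with the cell type lists, fall outside this rule and were chosen after their values were seen. The claudin family, the gene lists and this rule were chosen with earlier results of these data known. Sequences were not used here.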

Additional observations from a re-analysis of the deposited data

How the results depend on the processing

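Cldnd, cldng and cldn7b kept their call under the 16 alternatives tried, cldn5b and cldn7a under 15, cldn17 under 14, cldn11a and cldni under 11 and cldn1 under 6. With a 2-fold limit (glmTreat in edgeR) 0 claudins were higher, while 3 were at an unadjusted p below 0.05 and DESeq2 without that limit called 5, and 3 were lower. Limma-voom called 8 lower. Leaving out 1 library gave 1 to 4 higher and 5 to 6 lower. Tight junction partners numbered 2 higher and 1 lower with the 2-fold limit, 9 lower under library totals and 9 under limma-trend, and 5 to 10 higher and 10 to 16 lower with 1 library left out. The cause of these differences was not tested. Replicate numbers did not pair the libraries (correlations of deviations -0.038, 0.050 and 0.037), and with the replicate block 3 claudins were higher and 5 lower, cldn1 being lost (adjusted p = 0.0700 in edgeR, 0.00188 to 0.117 over its alternatives other than the 2-fold limit), and partners were 10 and 15.

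Of 688 values for single genes under alternatives, 612 kept direction and side of the threshold, 45 lost the call, 18 gained it and 13 changed sign. Sign changed in 4 uncalled genes. Cldna ranged from -0.023 to 0.62 with 1 library left out. Cldn23a was -0.031 under limma-voom, -0.034 under limma-trend, -0.45 with the replicate block and -0.44 to 0.69 with 1 library left out. Cldn15la was -0.010 under limma-voom and -0.20 to 0.23 with 1 library left out. Cldn10a was 0.063 under limma-voom, 0.10 under limma-trend and -0.59 to 0.45 with 1 library left out. Expressed claudins numbered 22 at 0.5 CPM, 17 at 2 CPM, 20 at 1 TPM and 18 with library totals.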
